A study of Macaca mulatta with 23 samples.

Results

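The 4 HOX gene clusters were described by their DNA methylation in the brains of 23 young rhesus monkeys (Macaca mulatta). The tissue was the amygdala's central nucleus, a forebrain region involved in fear and anxiety. Members were all measured cytosine positions inside 4 fixed intervals of the human build hg19, on which the authors placed the macaque reads: chr7:27130000-27252000 (HOXA), chr17:46600000-46810000 (HOXB), chr12:54330000-54452000 (HOXC) and chr2:176940000-177056000 (HOXD). These intervals held 2137 of the 444312 positions of the table, with 637 in HOXA, 521 in HOXB, 420 in HOXC and 559 in HOXD. Positions were taken by coordinates alone and by no methylation value, but the clusters were chosen with earlier results of these data known. Counting 2 positions 1 bp apart as the strands of a single CpG, the 2137 positions stood for 1433 CpGs.

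Each monkey gave 1 library of genomic DNA, 11 of them from left and 12 from right hemispheres, and monkeys are named here by hemisphere and a number within it. Their ages ran from 1.1 to 2.13 years and their anxious temperament scores from -1.48 to 1.43. The labels name no treatment, no genotype and no control group. Reduced representation bisulfite sequencing cuts DNA with MspI, so that CpG-rich fragments are favoured. The level of a position is the percentage of its calls that read as methylated, and the read depth behind it is unknown. The sample is tissue and not sorted cells, so an intermediate level may be a mixture of cells or of the 2 alleles, which cannot be told apart here.

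HOX genes encode homeodomain transcription factors that give segments of the body axis their identity. Their order along each cluster follows the order of their expression from head to tail, and genes of the same number in different clusters are paralogues. The forebrain, of which the amygdala is a part, lies ahead of the segments where HOX genes are switched on. There the clusters are known as long domains that Polycomb proteins keep silent, while their CpG islands stay free of DNA methylation. The RefSeq gene table of the macaque (assembly T2T-MMU8v2.0, used for names only) listed 39 HOX genes, 11 in the A cluster, 10 in B, 9 in C and 9 in D. In the human map, the end of the interval with the lower coordinates holds HOXB1 in HOXB, but HOXC13 in HOXC and HOXD13 in HOXD, while HOXA13 lies towards the upper end of HOXA. No annotation of hg19 was used, so positions are given by coordinates and by distance from the lower end of the interval, and no run is assigned to a gene.

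Libraries differed in completeness and in how many exact zeros they held, and these differences touch every low level given below. Left 3 lacked a value at 43.8% of the HOX positions, left 4 at 13.9% and right 9 at 11.4%, and the median over the 23 libraries was 1.36%. Of its HOX values, right 9 had 70.9% at exactly 0, left 3 had 62.2% and left 4 had 47.1%. The lowest shares of zeros were in right 10 at 6.41%, left 9 at 7.32% and left 7 at 10.6%. Levels of a cluster, a stretch or a run were therefore centred, as the mean deviation from the mean of each position plus the mean of those position means. Where right 9 or left 3 was the extreme library, values without both are given for many of the results, but not for the 10 kb stretches.

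The HOX clusters were almost free of methylation in this forebrain tissue. Of the 2137 positions, 2034 (95.2%) averaged less than 20%, 98 fell between 20% and 80%, and 5 exceeded 80%. Over the positions outside the clusters these shares were 60.8%, 18.1% and 21.2%. The level over all HOX positions was 5.329% ± 0.636 (SD, n = 23). It ran from 4.232% in right 11 to 6.994% in right 9, with a median of 5.269%. The same measure over the rest of the table was 30.72% ± 0.618 (SD, n = 23). HOX was the lower of the pair in 23 of 23 monkeys, by 24.2 to 26.2 percentage points.

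The low level did not extend evenly into the surrounding DNA. Within 500 kb on either side of the intervals, 1026 positions were measured and 63.8% of them had a mean level under 20%. Their level was 28.45% ± 0.729 (SD, n = 23), above that of HOX in 23 of 23 monkeys. Around HOXD the flanks held only 23 positions, against 559 inside the interval, and 13 of these 23 were over 80%. Around HOXA, HOXB and HOXC the share under 20% was 76.3%, 61.6% and 61.8%.

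CpG-dense DNA tends to be unmethylated, so the clusters were set beside runs with like numbers of measured positions. Positions no more than 200 bp apart were joined into runs, and 3 or more made a run. HOX held 103 runs, of which 9 had 50 or more positions, 74 had 10 to 49 and 20 had 3 to 9. In runs of 50 or more positions, 95.6% of the HOX positions had a mean under 20%, and 77.9% of the positions elsewhere. In runs of 10 to 49 these shares were 95.5% and 65.3%. In runs of 3 to 9 they were 89% and 38.7%, over 118 HOX positions. Outside the clusters the share of low positions was thus smaller in smaller runs. Within HOX it differed by less than 7 points between the run sizes. In the flanks alone the shares were 5.88%, 78.1% and 41.3% from the largest run size to the smallest, the first over 51 positions. Run size counts measured positions, with both strands of a CpG where measured, and is only a proxy for density. These shares describe positions, which are not replicates, and no test was made of them.

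**Figure D1:**
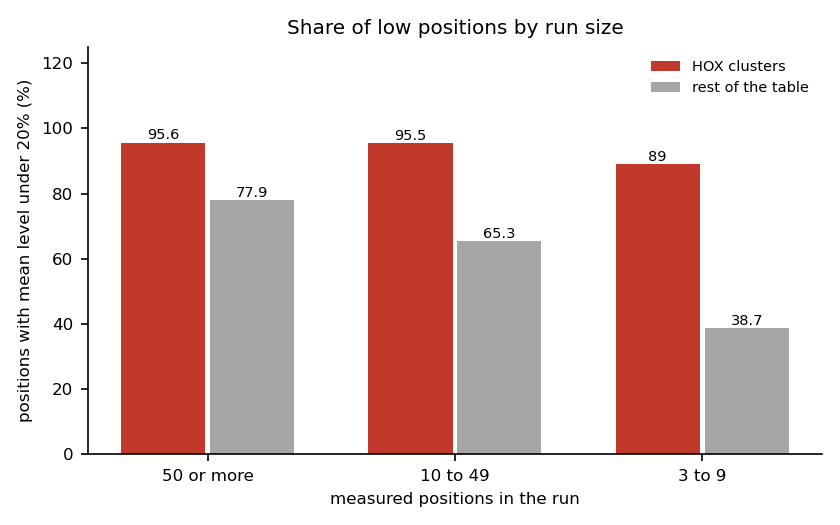
Bars give the percentage of positions with a mean level under 20%, by the number of measured positions in the run, for the HOX clusters (red) and the rest of the table (grey). The HOX bars stand at 95.6%, 95.5% and 89%, and those of the rest at 77.9%, 65.3% and 38.7%.

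Among low positions, HOX was not the lowest part of the table. Positions with a mean under 20% averaged 3.51% ± 0.592 (SD, n = 23) in HOX and 2.71% ± 0.47 (SD, n = 23) elsewhere. HOX was the higher in 23 of 23 monkeys, by 0.804 ± 0.181 points (SD). The median low position stood at 2.48% in HOX and 1.17% elsewhere. In runs of 50 or more positions the low positions averaged 2.94% ± 0.601 in HOX and 2.26% ± 0.585 elsewhere (SD, n = 23), again higher in HOX in 23 of 23 monkeys. In runs of 3 to 9 the difference was 0.688 ± 0.678 points (SD), and HOX was the higher in 18 of 23. At 21 of the 2137 HOX positions every monkey with a value was at 0, and at 10477 of the 442175 positions outside HOX. A cytosine that is another base in the macaque can read as 0 and was not identified here.

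The clusters differed from each other in level. HOXD was lowest at 3.47% ± 0.558, HOXC stood at 4.887% ± 0.84, HOXA at 5.446% ± 0.683 and HOXB at 7.538% ± 1.05 (SD, n = 23 each). HOXD was below each of the other clusters in 23 of 23 monkeys, and HOXB above each of them in 23 of 23. Centred levels share the same position means in all monkeys, so such counts are not independent observations. The same limit holds for the counts of HOX against the rest of the table and the flanks. The order of the clusters given here is that of the means and rests on the more methylated positions. With the median over positions, HOXA was highest at 2.435%, HOXB stood below it at 2.087%, and HOXC and HOXD were level at 1.957%. HOXA exceeded HOXC in 21 of 23 monkeys, by a mean of 0.559 points with an SD of 0.484. That difference is close to the spread between monkeys. In HOXD, 555 of 559 positions had a mean under 20% and none was over 80%, while in HOXB 471 of 521 were under 20%.

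A few runs made up much of the mean level of HOXB. Without its 2 most variable runs, which hold 64 positions and are described below, HOXB averaged 5.721% ± 0.661 (SD, n = 23). It then exceeded HOXA in 18 of 23 monkeys, HOXC in 22 and HOXD in 23. Without the stretch from 120 to 200 kb of the interval, which holds 21 positions, HOXB averaged 5.729% ± 0.878 (SD, n = 23) and exceeded HOXA in 14 of 23 monkeys, HOXC in 19 and HOXD in 23. Both omissions were chosen after the values were seen and took high runs out of HOXB alone, so that its level had to fall.

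Over monkeys, HOXA ran from 4.082% in right 11 to 7.049% in right 9, HOXB from 5.508% in left 10 to 9.509% in left 9, HOXC from 3.93% in right 11 to 7.944% in right 9, and HOXD from 2.775% in right 2 to 4.682% in left 9. Right 9 stood far above the others in HOXC, where the next highest monkey, left 7, was at 5.964%. Without right 9 and left 3 the SD in HOXC was 0.535 in place of 0.84, and the highest value in HOXA was 6.731%. Beside right 9, the monkeys with the highest level over all HOX positions were left 9 at 6.569%, left 7 at 6.218% and right 10 at 5.942%. These 3 libraries also had the smallest shares of exact zeros, given above, and right 9 the largest. They were likewise the 3 highest over all runs of 50 or more positions in the table, at 17.13%, 17.47% and 17.14%. The part of this library property in the HOX levels was not tested.

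**Figure D2:**
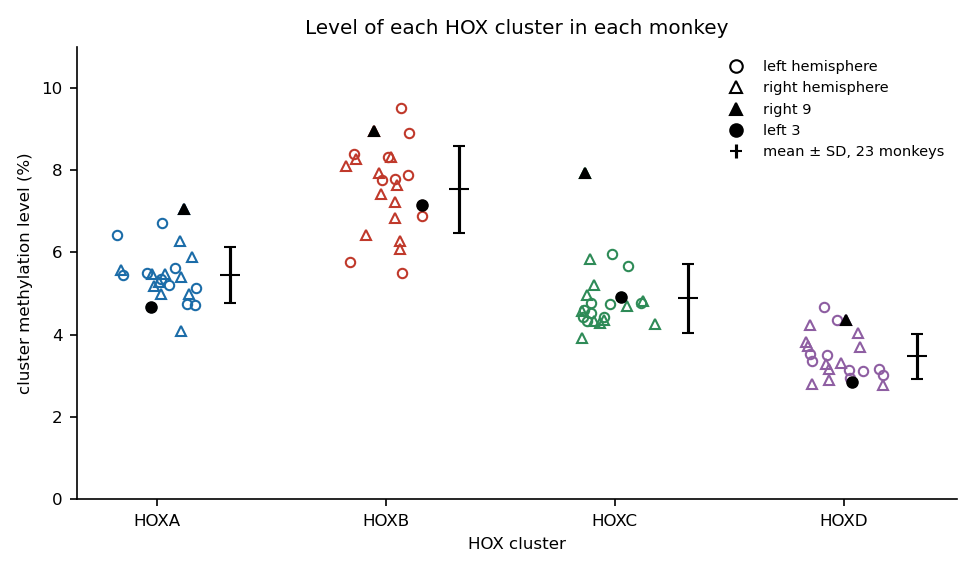
Each open point is the level of 1 cluster in 1 monkey (circles left hemisphere, triangles right), black points mark right 9 and left 3, and the bar gives the mean ± SD over 23 monkeys. HOXD sits lowest at 3.47% ± 0.558 and HOXB highest at 7.538% ± 1.05, and right 9 stands apart in HOXC at 7.944%.

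Along the clusters, each interval was cut into stretches of 10 kb from its lower end, 59 in all, of which 44 held measured positions. The level was under 10% in 37 of these, between 10% and 20% in 4 and over 20% in 3. All 3 stretches over 20% were in HOXB.

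In HOXA, 12 of 13 stretches held positions, and 11 of these were under 10%. The highest was the second, from 10 to 20 kb. It reached 10.48% ± 1.6 (SD, n = 23) over 68 positions. The stretches from 50 and from 80 kb stood at 9.537% ± 1.47 and 8.113% ± 1.36 (SD, n = 23 each). Between and beyond them levels were lower, at 3.401% ± 0.707 (SD, n = 23) from 20 kb, 2.737% ± 0.944 (SD, n = 23) from 40 kb, and 3.128% ± 0.827 (SD, n = 23) from 100 kb, towards HOXA13. HOXA thus showed no steady rise or fall along its length.

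In HOXB, 13 of 21 stretches held positions. At the end that holds HOXB1, the first stretch stood at 22.25% ± 4.89 (SD, n = 23) over 15 positions. The stretch from 20 kb was at 11.9% ± 4.12 and that from 60 kb at 12.75% ± 1.94 (SD, n = 23 each). From 90 to 120 kb the cluster was low, with 2.662% ± 0.728 (SD, n = 23) over 164 positions, then 3% ± 0.536 (SD, n = 23) and 3.35% ± 1.88 (SD, n = 22). The part beyond, from 120 to 200 kb, held 21 positions in 2 runs, with levels of 40.97% ± 22.1 (SD, n = 20) and 60.61% ± 4.28 (SD, n = 23). In the last stretch, at the end that holds HOXB13, the level was again low at 7.966% ± 1.45 (SD, n = 22). HOXB13 lies apart from the other HOXB genes in mammals, across a long interval with no HOX gene.

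HOXC was low along most of its measured length and HOXD along all of it. In HOXC, 9 of 13 stretches held positions and 8 were under 10%. The lowest, from 10 kb near the end that holds HOXC13, was at 2.34% ± 1.13 (SD, n = 22) and the highest, from 80 kb, at 15.42% ± 2.87 (SD, n = 21). In HOXD all 10 stretches with positions were under 10%. The lowest, from 10 kb, was at 1.995% ± 0.906 and the highest, from 50 kb, at 6.623% ± 1.72 (SD, n = 23 each). The densest stretch of any cluster, from 30 kb of HOXD with 183 positions, was at 2.121% ± 0.449 (SD, n = 23). In the first 40 kb of HOXD, on the side of HOXD13, the 4 stretches were at 3.152% or less, and from 40 kb on, towards HOXD1, the 6 with positions ranged from 3.643% to 6.623%. The 2 sides were divided after the values were seen.

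**Figure D3:**
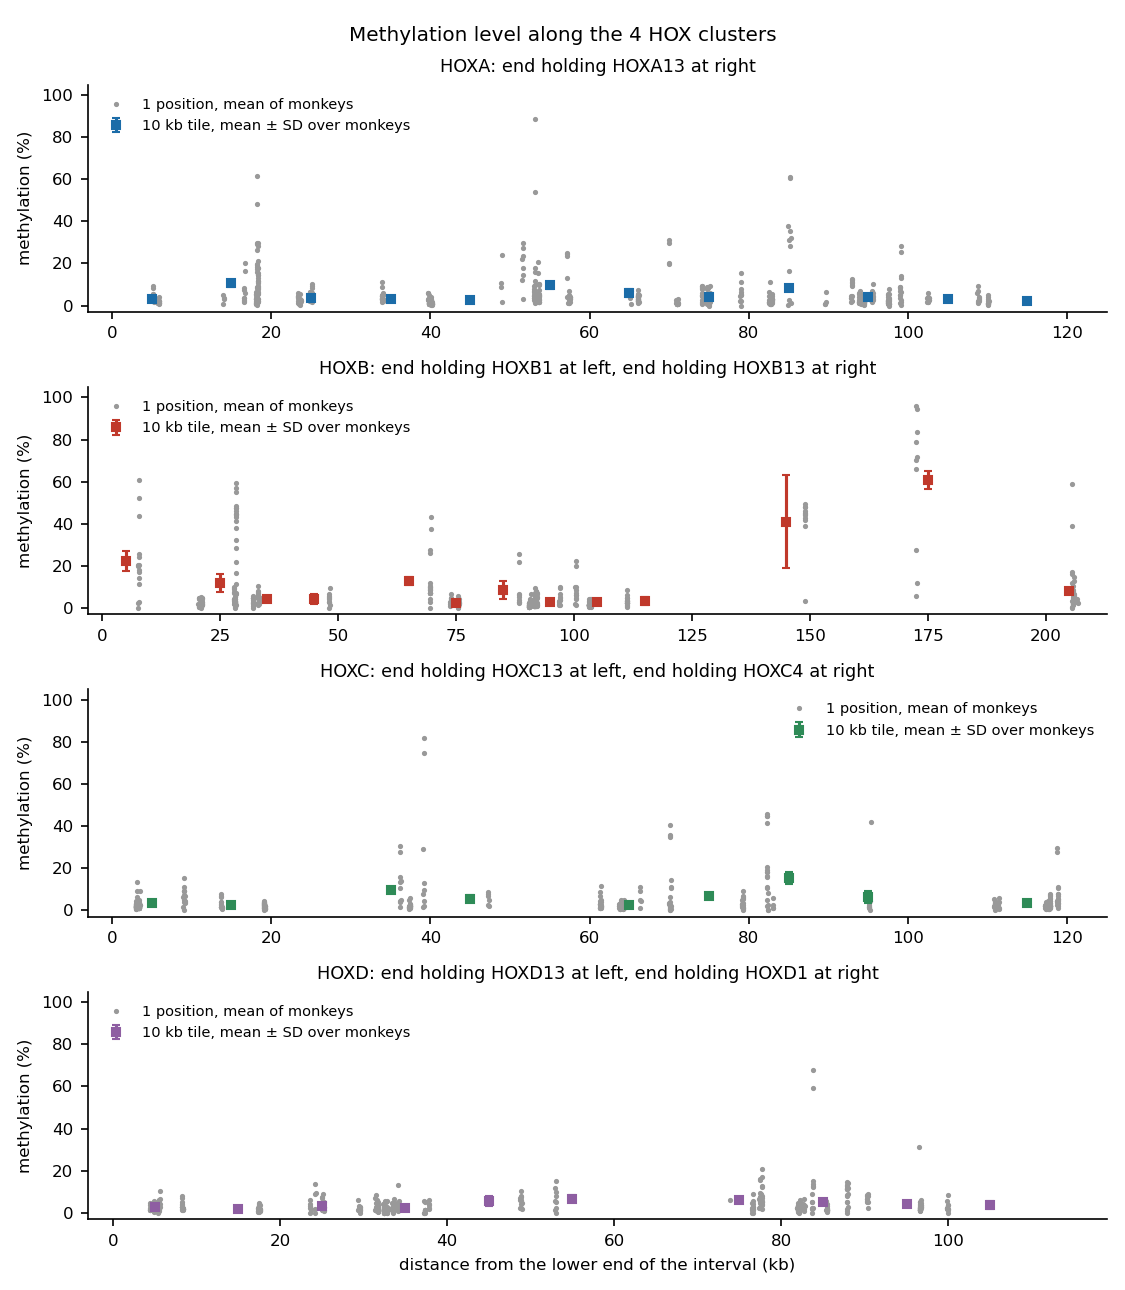
Grey points are positions (mean level over monkeys, in percent) and coloured squares are 10 kb stretches (mean ± SD over monkeys), placed at the middle of each stretch by distance in kb from the lower end of the interval. Nearly all squares lie under 10%; the exceptions over 20% are in HOXB at its HOXB1 end (22.25%) and from 120 to 200 kb (40.97% and 60.61%).

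Of the 9 runs of 50 or more positions, 7 were at 3.051% or less. The median over the 103 runs was 3.41%. In HOXB, the run of 95 positions at chr17:46691623-46692177 was at 3.051% ± 0.865 (SD, n = 22) and that of 57 positions at chr17:46690512-46690864 at 1.805% ± 0.707 (SD, n = 22). In HOXC, the run of 68 positions at chr12:54332986-54333486 was at 2.703% ± 0.826 (SD, n = 23) and that of 50 at chr12:54393710-54394276 at 2.132% ± 0.756 (SD, n = 22). In HOXD, the runs of 58 and 54 positions at chr2:176971422-176971762 and chr2:176972363-176972830 were at 2.05% ± 0.75 and 1.603% ± 0.468 (SD, n = 23 each). The highest monkey was right 9 in these 6 runs, and without right 9 and left 3 the SD was 0.546, 0.538, 0.531, 0.554, 0.581 and 0.402 points in the order given. In HOXA, the run of 48 positions at chr7:27169737-27170213 was at 1.863% ± 0.908 (SD, n = 22), with an SD of 0.742 without right 9 and left 3. The exceptions among the 9 were the longest HOXA run, at 11.61%, and a HOXB run of 53 positions, at 16.26%, both described below.

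The more methylated positions lay in a minority of the separate groups of positions. The 103 positions with a mean of 20% or more lay in 27 of the 104 groups. Of these positions, 38 lay in the 6 runs whose mean was over 20%, and the others in groups with lower means. Only 22 positions had a mean of 50% or more, 5 in HOXA, 13 in HOXB, 2 in HOXC and 2 in HOXD, and they lay in 9 runs.

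The run with the highest level was at chr17:46772580-46772729 in HOXB, 10 positions within 150 bp. Its level was 60.61% ± 4.28 (SD, n = 23), from 52.8% in right 12 to 68.7% in right 2, with a median of 60%. All 23 monkeys were thus above 50%. Position means within it were not uniform. The first position was at 5.652%, those at 46772612 and 46772688 at 95.87% ± 3.91 and 94.3% ± 5.27 (SD, n = 23 each), and 5 others between 65.78% and 83.78%.

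The most variable run came before it in the interval, at 148.9 kb in place of 172.6 kb. It was chr17:46748875-46749009, with 11 positions. Over 20 monkeys its level was 40.97% ± 22.1 (SD), from 10.36% in left 11 to 75.45% in left 9, with a median of 39.77%. The values did not fill this range evenly: 7 monkeys stood between 10.36% and 20.64%, 7 between 34.09% and 46.73%, and 6 between 60.27% and 75.45%. No monkey lay between 20.64% and 34.09% or between 46.73% and 60.27%. Within the highest of the ranges that held monkeys, none lay between 60.55% and 72.09%. The ranges were read from the values and are not groups of the study. Of the 11 positions, 10 had means between 38.9% and 49.1% and SDs between 23.1 and 26.9 points, so high and low monkeys were found at each of these 10. In left 9, the highest monkey, they stood between 71% and 86%, and in left 11, the lowest, between 8% and 20%. The last position, 46749009, averaged 3.2% ± 4.008 (SD, n = 20) and was at 0 in left 9. Over the 10 positions the level was 47% ± 28.4 (SD, n = 10) in left samples and 42.5% ± 20.8 (SD, n = 10) in right samples. Right 9, left 3 and right 12 had too few values in this run, so its spread does not rest on right 9 or left 3. Positions of a run can be covered by the same reads and are not independent.

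A second variable HOXB run, of 53 positions at chr17:46628017-46628444, changed level along its length. Its first 34 positions were at 3.94% ± 0.918 (SD, n = 23). From 287 bp on, the 19 remaining positions averaged 37.9% ± 19.4 (SD, n = 17), with a lowest value of 8.63% in left 10, a median of 41.4% and a highest of 68.2% in left 5. This part was not uniform: position means ran from 1.35% to 59.2%, and the median range within a monkey was 62 points. The boundary was set at the first position with a mean of 20% or more, after the values were seen. In the second part the 9 left samples with values stood at 43.7% ± 22.2 and the 8 right samples at 31.4% ± 14.4 (SD), a difference smaller than either spread. By the boundary chosen, the first part ended at 46628277 and the second part began at 46628304. No boundary was located within single monkeys. Some of the 17 monkeys with values in the second part were low there too, such as left 10 at 8.63% and right 11 at 13.3%.

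The other 4 runs with means over 20% had SDs from 4.14 to 13.8 points, all smaller than that of the run at 148.9 kb. At the HOXB1 end, the run of 15 positions at chr17:46607515-46607865 was at 22.43% ± 5.03 (SD, n = 21), from 16.13% in right 11 to 36.05% in right 9. Its SD was 4.04 points without right 9 and left 3. In HOXA, the run of 11 positions at chr7:27214902-27215280 was at 28.05% ± 6.59 (SD, n = 22), from 18.73% in right 8 to 46.51% in left 4. In HOXC, the run of 9 positions at chr12:54369081-54369208 was at 24.89% ± 4.14 (SD, n = 19). The HOXA run of 4 positions at chr7:27199973-27200012 was at 25.21% ± 13.8 (SD, n = 23), but right 9 alone stood at 75% and the next monkey at 37.75%. Its SD was 8.91 without right 9 and left 3.

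**Figure D4:**
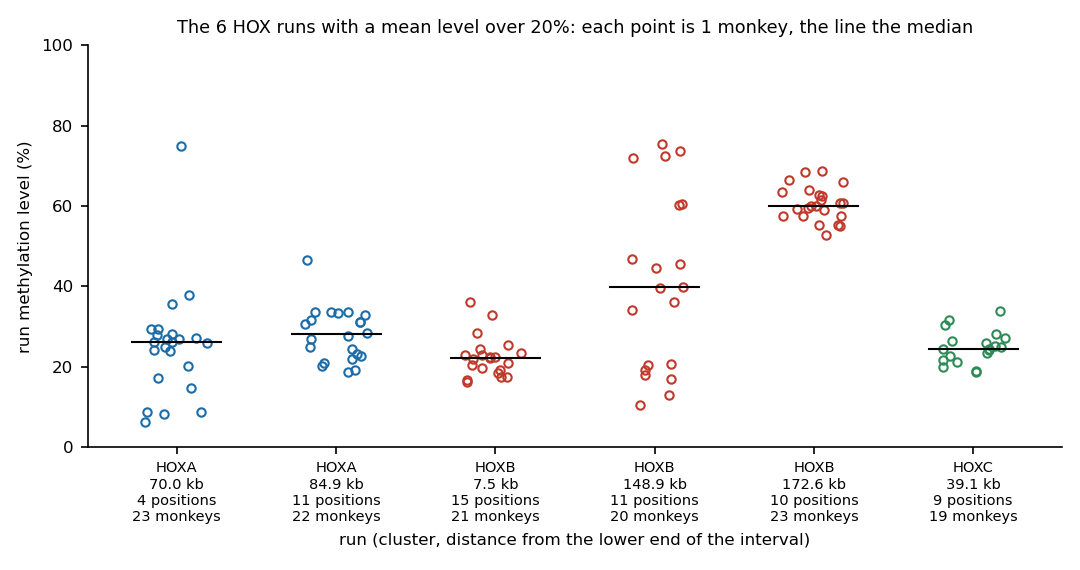
Each point is the level of 1 monkey in 1 of the 6 HOX runs with a mean over 20%, and the line is the median; runs are labelled by cluster, distance from the lower end of the interval and number of positions. The HOXB run at 148.9 kb spreads from 10.36% to 75.45%, while the HOXB run at 172.6 kb stays between 52.8% and 68.7%.

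In several runs the level of a single CpG was far above that of most of its neighbours. In HOXC, the CpG at 54369162 and 54369163 was at 81.71% ± 14 (SD, n = 21) on 1 position and 74.84% ± 17.9 (SD, n = 19) on its partner. The median of the other positions within 50 bp was 7.194%. In HOXA, 27183101 was at 88.64% ± 14.5 (SD, n = 22) and its partner 27183100 at 54.15% ± 14.3 (SD, n = 20), while neighbours within 50 bp had a median of 4.45%. In HOXD, 177023776 and 177023777 were at 59.5% ± 25 (SD, n = 20) and 67.76% ± 29.2 (SD, n = 21), beside a neighbour median of 12.33%. These 2 were the only HOXD positions over 50%.

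The longest HOXA run was of another kind, with a methylated CpG at the edge of a block of positions with uneven means. This run of 54 positions at chr7:27148047-27148410 was at 11.61% ± 2.14 (SD, n = 23), from 7.386% in right 12 to 15.5% in left 6. Position 27148214 in it averaged 61.44% ± 28.6 (SD, n = 18). Before it, 27148205 was at 5.227%, and after it 27148226 was at 26.61% ± 21 and 27148264 at 29.61% ± 25 (SD, n = 18 each). Single monkeys ran from 0 to 80% at 27148226 and from 0 to 100% at 27148264. Not all positions of the block were so high: 27148266 averaged 0.4118% and 27148297 15.44%, while 27148283 was at 29%. The strand partner of 27148214, at 27148213, averaged 48.41% ± 33.1 (SD). Across the clusters the median difference between the strand means of a CpG was 0.739 points over 704 pairs, against 1.03 points over pairs elsewhere. HOX positions were mostly low, which limits any difference in points. More than 20 points separated 0.284% of the HOX pairs and 9.56% of the pairs elsewhere. The HOX pairs over this limit were 2, both in HOXA. They were 27183100 with 27183101, above, and 27215279 with 27215280 at the end of the run at 84.9 kb, at 1.095% and 32.18%.

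**Figure D5:**
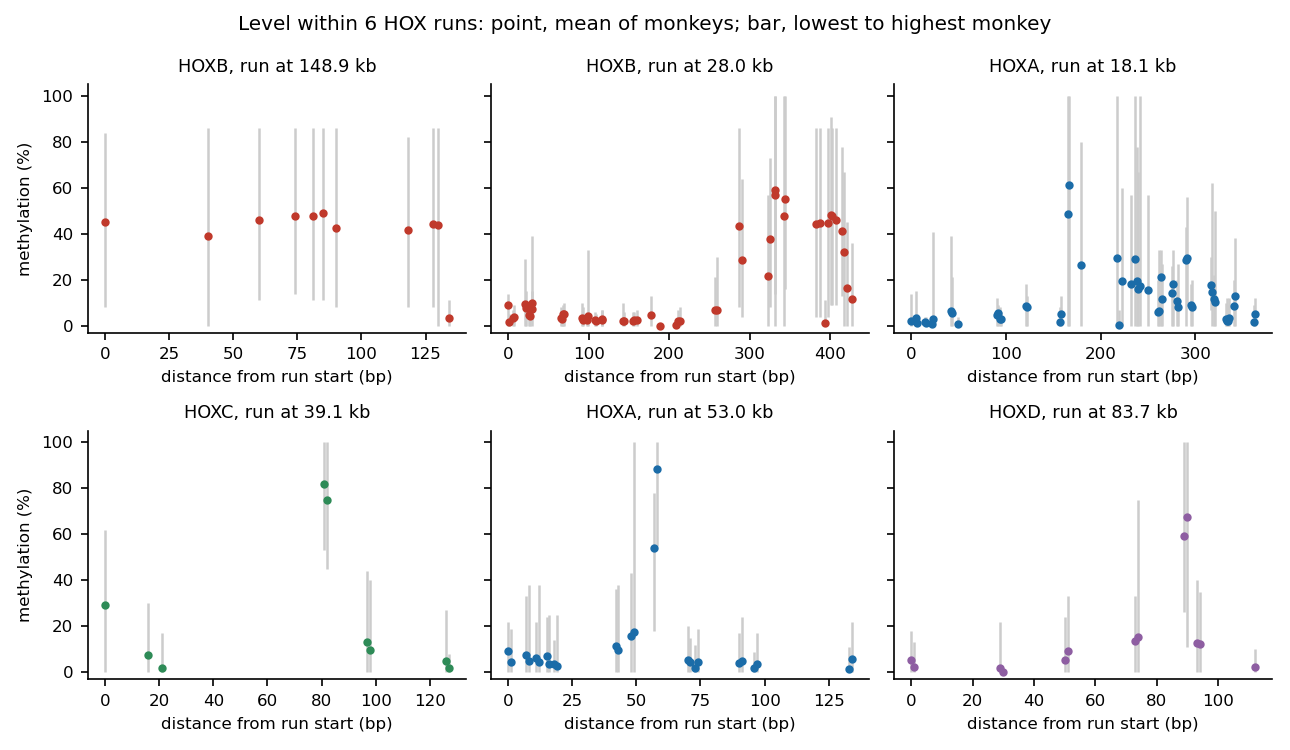
For 6 runs, points give the mean level of each position by distance in bp from the start of the run, and grey bars run from the lowest to the highest monkey. In the HOXB run at 148.9 kb 10 of 11 positions lie between 38.9% and 49.1% with long bars. The HOXB run at 28 kb averages 3.94% before 287 bp and 37.9% from there on, where position means range from 1.35% to 59.2%. The lower panels show single CpGs far above their neighbours.

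Other runs that ranked high in level or spread were lower than these. In HOXC, the run of 18 positions at chr12:54412228-54412427 was at 18.06% ± 3.05 (SD, n = 18) and that of 10 at chr12:54366199-54366344 at 12.67% ± 2.3 (SD, n = 23). In HOXD, the run around the methylated CpG, of 13 positions at chr2:177023687-177023799, was at 15.77% ± 5.65 (SD, n = 19). The HOXA run around 27183100, of 26 positions at chr7:27183043-27183177, was at 11.15% ± 3.67 (SD, n = 21), with right 8 at 24.27% and the next monkey at 15.08%.

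Of the HOXC runs with values in 20 or more monkeys, the 2 with the largest SD depended on right 9. The run of 20 positions at chr12:54448687-54448875 was at 7.604% ± 4.1 (SD, n = 21), with right 9 at 24.4% and the next monkey at 10.24%. The run of 12 at chr12:54425082-54425323 was at 6.218% ± 2.75 (SD, n = 23), with right 9 at 15.61% and the next at 10.42%. Without right 9 and left 3 their SDs were 1.44 and 1.89 points. In HOXD, with the same limit, the 2 with the largest SD changed little. That of 18 positions at chr2:177027835-177027955 was at 8.461% ± 4.04 and that of 10 at chr2:177030236-177030340 at 6.435% ± 2.97 (SD, n = 23 each), and their SDs were 3.76 and 2.87 without these libraries.

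Variation between monkeys at single positions depended on the level. Among positions with a mean under 20% and values in 20 or more monkeys, the median SD was 2.13 points in HOX and 1.61 elsewhere, beside mean levels of 3.42% and 2.65%. By cluster it was 2.36 in HOXA, 2.25 in HOXB, 2.1 in HOXC and 1.93 in HOXD. Among positions between 20% and 80% the median SD was 15.8 points over 59 HOX positions and 13.7 elsewhere. Their mean levels were 39.3% and 53%. HOXB held 29 of these 59, with a median SD of 23.1. It was 12.7 in HOXA and 13.2 in HOXC, both under the value elsewhere, and 25 over 3 HOXD positions. A range of 40 points or more was found at 76.3% of the HOX positions of this class and 79.4% of those elsewhere.

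Among positions with values in 20 or more monkeys, the 2 with the largest SD in HOXA and the 2 in HOXC had it from 1 library. In HOXA these were 27183092, at 17.59% ± 22 (SD, n = 22), and 27227625, at 7.864% ± 20.7 (SD, n = 22). In HOXC they were 54343770, at 6.545% ± 21, and 54343763, at 7.591% ± 20.8 (SD, n = 22 each). Right 9 was at 100% at all 4. Without right 9 and left 3 their SDs were 12.3, 2.29, 1.92 and 2.2 points. With fewer monkeys, positions of the longest HOXA run varied more, such as 27148213 and 27148214 above, and right 9 and left 3 had no value at the latter. In HOXB, with the same limit of 20 monkeys, the largest were both strands of the CpG at 46628348 and 46628349, in the variable run above, with SDs of 30.3 and 31.1, and 27.9 and 31.1 without right 9 and left 3. In HOXD they were the CpG at 177023776 and 177023777, whose SDs were 25 and 29.6 without these libraries.

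Anxious temperament, scored on a continuous scale, was the trait of interest of the study, and age its covariate. The identifiers of the monkeys fall into a series of 12 and a series of 11, whose meaning the labels do not give. Adding this series as a covariate, like the other alternatives given at the end, changed no count of calls for score or hemisphere. In a limma fit over 192151 positions of the whole table that varied by 10 points or more, 852 lay in HOX. No HOX position was called for the score at an adjusted p under 0.05, and 0% of all positions were. At an unadjusted p under 0.05 there were 20 HOX positions (2.35%), 9 with a positive slope and 11 with a negative one, against 3.12% of all positions. The smallest p in HOX was at chr17:46628274, which lies in the low first part of the variable run at 28 kb. Its levels ran from 0 to 21% with a median of 5%. Per score unit the slope was 4.916 ± 1.378 points (SE, n = 23; limma p = 0.001513, adjusted p = 1). Next in order were 46749009, with 3.014 ± 1.051, and 46772636, with -12.83 ± 4.878 points per score unit (SE), both at a limma adjusted p of 1.

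For runs, too, no relation to the score passed the threshold. Of 46 HOX runs tested among 18911, limma called 0 at an adjusted p under 0.05, beside 0% of all runs. One had an unadjusted p under 0.05 (2.17%, against 3.16% of all runs). It was the most methylated run, at chr17:46772580-46772729, and its slope per score unit was -2.313 ± 1.116 points (SE, n = 23; limma p = 0.0499, adjusted p = 1). The most variable run, at chr17:46748875-46749009, had a slope of -3.539 ± 6.077 (SE, n = 20; limma adjusted p = 1). For the level of whole clusters, slopes per score unit were 0.177 ± 0.203 points in HOXA, -0.0801 ± 0.298 in HOXB, 0.0489 ± 0.253 in HOXC and 0.182 ± 0.164 in HOXD (SE, n = 23 each). The slope was larger than its standard error in HOXD alone, and no p was computed for these values.

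For age, limma called no HOX position, where 0.0531% of all positions were called. At an unadjusted p under 0.05 there were 16 (1.88%, against 4.06% of all), 15 of them with a positive slope. Over all tested HOX positions, however, the median slope was -0.637 points per year, against 0.523 over all positions of the fit. Without left 1, the oldest monkey, limma called 0 positions in the whole table, and 3.28% of the HOX positions and 3.52% of all had an unadjusted p under 0.05. Without this monkey the share in HOX was thus still the lower, but close to that of all positions. The leading HOX position for age, chr7:27208976, ran from 0 to 18% with a median of 5%. The slope per year was 15.66 ± 4.449 points (SE, n = 23; limma adjusted p = 0.4618). The highest value, 18%, was that of left 1, the oldest monkey at 2.13 years. Next were 46669566, with 12.19 ± 3.516, and 46633100, with 9.025 ± 2.83 points per year (SE, n = 23 each; limma adjusted p = 0.4881 and 0.6704). Without left 1 the slope at 46633100 was 4.179 ± 4.617. Of the runs, 0 of 46 were called, where 0.00529% of all runs were, and 2 had an unadjusted p under 0.05 (4.35%, against 6.04% of all). The leading run, at chr7:27208955-27209060, had a slope per year of 3.88 ± 1.58 points (SE, n = 23; limma adjusted p = 0.7989). The second, at the HOXB1 end (chr17:46607515-46607865), had a slope of 10.42 ± 4.451 (SE, n = 21; limma adjusted p = 0.8176). Left 1 stood there at 32.91% beside a mean of 22.43%, and without it the slope was 5.846 ± 7.556 (SE). Right 9 was highest there, and without right 9 and left 3 the slope was 11.42 ± 3.092 (SE, limma adjusted p = 0.3502).

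In HOX, 3 positions were called for age only when positions that varied by under 10 points were also tested. They were chr7:27153536, chr7:27205036 and chr12:54400126, with limma adjusted p of 0.02096, 0.04876 and 0.04876. In each, left 1 alone was high, at 7%, 6% and 8%, and no other monkey was above 3%, 2% and 2%. Without left 1 their slopes fell from 6.36, 4.636 and 6.031 points per year to 2.982, 0.5074 and 0.2205.

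Right and left samples were compared with score and age in the model. Limma called no HOX position, as it called 0% of all, and 25 had an unadjusted p under 0.05 (2.93%, against 3.48% of all). The leading one was chr17:46607817, in the run at the HOXB1 end. The mean was 23% ± 12.89 over 9 left samples, the highest being left 1 at 50%, and 7.667% ± 6.893 over 12 right samples (SD). Right minus left, with score and age in the fit, was -15.2 ± 3.64 points (SE, limma adjusted p = 0.9297). The run that holds it did not move with it: its mean was 22.72% ± 5.44 over left and 22.21% ± 4.932 over right samples (SD). At chr2:177023781, beside the methylated HOXD CpG, left samples stood at 19.2% ± 11.85 (SD, n = 10) and right samples at 6.091% ± 7.148 (SD, n = 11). At chr17:46633169 they stood at 1.9% ± 2.644 and 7% ± 3.916 (SD, n = 10 each). For both the limma adjusted p was 0.9297.

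No HOX run was called for hemisphere either, as for 0% of all runs, and 3 had an unadjusted p under 0.05 (6.52%, against 3.31% of all). They were chr12:54366199-54366344, lower in right samples by 2.03 points in the fit (slope -2.028 ± 0.8897 SE), the longest HOXA run (-1.876 ± 0.8526), and chr17:46620414-46620544 (2.004 ± 0.9502), and the limma adjusted p was 0.9872 for all 3. In the HOXC run the highest monkey, at 20.3%, was left 3. Without right 9 and left 3 the values were -1.188 ± 0.6833, -1.93 ± 0.8697 and 1.663 ± 1.024 points (SE), so that the HOXC and HOXB runs no longer had an unadjusted p under 0.05 (limma p = 0.09779 and 0.1214). The cluster levels differed between right and left by 0.0853 ± 0.303 points in HOXA, -0.13 ± 0.444 in HOXB, 0.0974 ± 0.377 in HOXC and 0.106 ± 0.243 in HOXD (SE, n = 23 each), each smaller than its standard error.

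Whether left and right samples differed in their slope on the score was tested as an interaction. Limma called no HOX position and no HOX run for this interaction, as for 0% of all positions and 0% of all runs. At an unadjusted p under 0.05 there were 12 HOX positions (1.41%, against 3.24% of all) and 1 HOX run (2.17%, against 3.93%), at chr12:54377225-54377342 (interaction 2.037 ± 0.894 points per score unit with its SE; limma adjusted p = 0.9997). The leading positions were chr17:46805564, chr12:54400194 and chr17:46772580, each with a limma adjusted p of 1.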

How the data were processed

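The authors deposited 1 table of methylation levels, a fraction from 0 to 1 at 2 decimals, for 23 libraries; Bismark 0.11.1 and hg19 are named in the submitters' processing notes. Coverage limits and strand handling were not given in the sources used here. Macaque reads were placed on human coordinates, so sites that differ between the species can be missing or misread, and neighbouring positions can share reads. P-values set a slope or difference against the residual spread between monkeys, as moderated by limma over all units tested. With 1 library per monkey, this spread also holds the noise of the library. Depth is unknown, so no interval or floor was computed. Fractions were turned into percent. Members and lists were chosen with earlier results of these data known. Run levels needed values at 50% or more of the positions of a run in a monkey. Tests used limma 3.58.1 in R 4.3.3 (variance trend on the mean level, Benjamini-Hochberg over all units tested, 2-sided), on units measured in 20 or more monkeys that spanned 10 points (positions) or 5 (runs), with score and age as terms. The code was tested on simulated data. Figures used matplotlib 3.10.9. Named were, per cluster, the 2 longest, 2 most methylated (10 or more positions) and 2 most variable runs (5 or more positions, 20 or more monkeys), the 2 most variable positions, and the 3 positions and 3 runs with the smallest p per term; a few of the leading runs are not printed. Other runs and positions were named after their values were seen. Alternatives covered scale, filters, variance prior, covariates, libraries, strands and run definition. No sequence is printed, since no hg19 genome was used here.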

Additional observations from a re-analysis of the deposited data

How the results depend on the processing

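Of 88 alternatives for the 8 counts of called positions or runs (scales, filters, variance prior, covariates, libraries, strands, run definitions), 87 gave 0, and age without the range filter gave 3 positions, in each of which left 1 was the highest monkey. Of 62 alternatives for levels, shares and slopes, 43 moved by less than the spread or standard error. Among these the slope of HOXB on the score turned from -0.0801 to 0.02565 at complete positions, both smaller than the standard error. The median SD over positions was 0.748 to 0.989 times its value under 12 alternatives. The median over positions, in place of the mean, gave 2.435% in HOXA, 2.087% in HOXB, 1.957% in HOXC and 1.957% in HOXD, which puts HOXA above HOXB. At complete positions HOXC stood at 3.321%, and the share under 20% was 98.73% in HOXC and 93.78% in HOXB. With strands averaged, HOXB stood at 9.513% and its share under 20% at 86.15%. With a limit of 10% in place of 20%, the share of low positions was 88.54% in HOXA, 86.76% in HOXB, 90.71% in HOXC and 94.99% in HOXD, and with 30% it was 98.27% in HOXA. The highest stretch of HOXA was at 21.5% with 5 kb stretches and 7.928% with 20 kb, and that of HOXC at 12.3% with 20 kb. HOXB stood at 5.721% without its 2 most variable runs and at 5.729% without the stretch from 120 to 200 kb, both chosen after seeing the data. The cause of other moves was not tested. No paired analysis was possible because left and right samples came from different monkeys and their numbers pair nothing. Unknown depth limits every low level.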
